A study of Mus musculus with 26 samples.

Results

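Left ventricles of 2 groups of male mice were compared: sham-operated males carrying a gene trap in Uty and castrated males with an intact Uty. The gene-trap sham group (UtyGt(XS0378)Wtsi) holds 6 libraries, and the wild-type castrated group holds 7, its mice being of the strain C57BL/6.Y<129P2> that is isogenic with the trap. They make 13 of the 26 libraries of the study, and were chosen by the genotype and surgery in their labels. The other libraries, 6 from wild-type sham and 7 from gene-trap castrated males, serve here as reference levels only. All animals were operated on at about 10 days of age and their hearts were taken at 40 days. The trap lies in the 4th intron of Uty and is present throughout the animal, so it is not limited to heart muscle cells, and castration likewise acts on the whole animal. The groups differ in both genotype and surgery, so a difference between them cannot be assigned to one or the other from this contrast alone. Nothing in the labels says whether libraries of a group came from separate litters or days, so the p-values measure the spread between these libraries.

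Uty is a Y-linked member of the family of JmjC histone demethylases whose X-linked homologue, Kdm6a, removes methyl groups from lysine 27 of histone H3. The trap cassette carries a splice acceptor, which cuts the transcript short. Castration removes the testes, the main source of androgen in males, and the heart expresses the androgen receptor. The question of the comparison was whether the trap alone and castration alone left the ventricle in the same expression state, and which genes told the 2 states apart.

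Libraries were made from 3′ ends of transcripts, so 1 read stands for about 1 transcript regardless of its length. The 13 libraries held between 6357485 and 9399241 reads assigned to genes, between 16005 and 16903 genes with a read, and between 14.6% and 20% of reads from mitochondrially encoded genes. Levels are CPM (counts scaled to a common library size) after scaling with trimmed means of M-values (TMM), and 3 counts in a library equal between 0.319 and 0.472 CPM. None of depth, genes with a read, mitochondrial share, the share of reads without a unique alignment or the slope of level on GC content differed between the groups in an exact permutation test over the 13 libraries, with adjusted p from 0.295 to 0.773. All 14 ventricular cardiomyocyte markers were read in every library. Myh6, the main adult myosin heavy chain gene, had 6062 and 5213 CPM in gene-trap sham and wild-type castrated, and the ventricular light chain gene Myl2 had 5771 and 5516 CPM.

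Few genes were called between the groups, and for most genes the 95% interval kept the difference within ±1 log2. Of 11783 genes tested with edgeR's quasi-likelihood test, 105 had a Benjamini-Hochberg adjusted p under 0.05, which is 0.891% of those tested. Of these, 79 were higher in gene-trap sham and 26 were lower. The median absolute log2 fold change over all genes was 0.18, and 0.63 over the 105. The 95% interval of the difference lay wholly inside ±0.5 log2 for 5299 genes (45%) and inside ±1 log2 for 10425 genes (88.5%). For 1323 genes that were not called the interval reached past 1 log2, so a difference of that size was not excluded for them at this number of libraries. Without adjustment 2382 genes had a p under 0.05, of which 1189 were higher (10.1% of those tested) and 1193 lower (10.1%). In simulated counts where genes varied independently, 5% of unchanged genes had such a p. Against the shared wild-type sham libraries, in one fit to all 4 groups, gene-trap sham had 3207 of 12291 genes called (26.1%) and wild-type castrated had 4956 (40.3%), with median absolute log2 fold changes of 0.33 and 0.37. The mean slope on GC content was 0.238 in wild-type sham, against −0.0597 in gene-trap sham and −0.130 in wild-type castrated. Mean genes with a read were 15878, against 16426.5 and 16508.4. The part of these library values in the distances from wild-type sham was not tested.

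**Figure D1:**
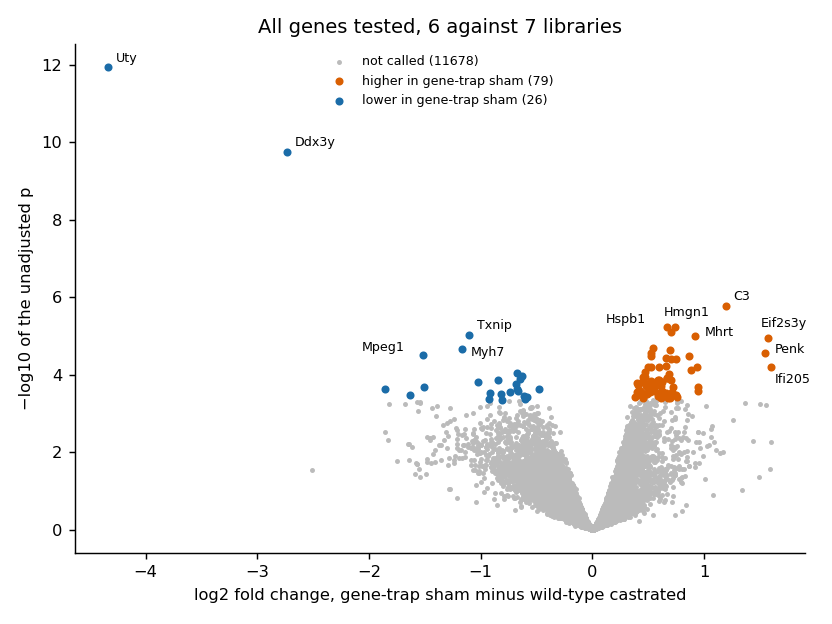
Each point is 1 of 11783 genes, with the log2 fold change of gene-trap sham (n = 6) minus wild-type castrated (n = 7) on the x axis and −log10 of the unadjusted p on the y axis. Colour marks the 79 genes higher and the 26 lower at an adjusted p under 0.05. Uty and Ddx3y stand apart at log2 fold changes of −4.33 and −2.73, and C3 leads the genes that were higher.

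The number of genes called rested on single libraries. At an adjusted p under 0.01 it was 3, namely Uty, Ddx3y and C3. Without gene-trap sham replicate 1, 4, 5 or 7 it was 12, 17, 41 or 8, and without wild-type castrated replicate 1, 3, 4, 6 or 7 it was 65, 12, 11, 11 or 13. It became 518 without gene-trap sham replicate 2, 650 without wild-type castrated replicate 2 and 746 without wild-type castrated replicate 5, and all 105 genes remained called in each of those 3 fits. Of the 13 removals only that of gene-trap sham replicate 3, with 87 genes called, left the count within 1.5 times. In contrast, the number of genes with an interval inside ±0.5 log2 stayed between 4609 and 5173 in those fits.

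**Figure D2:**
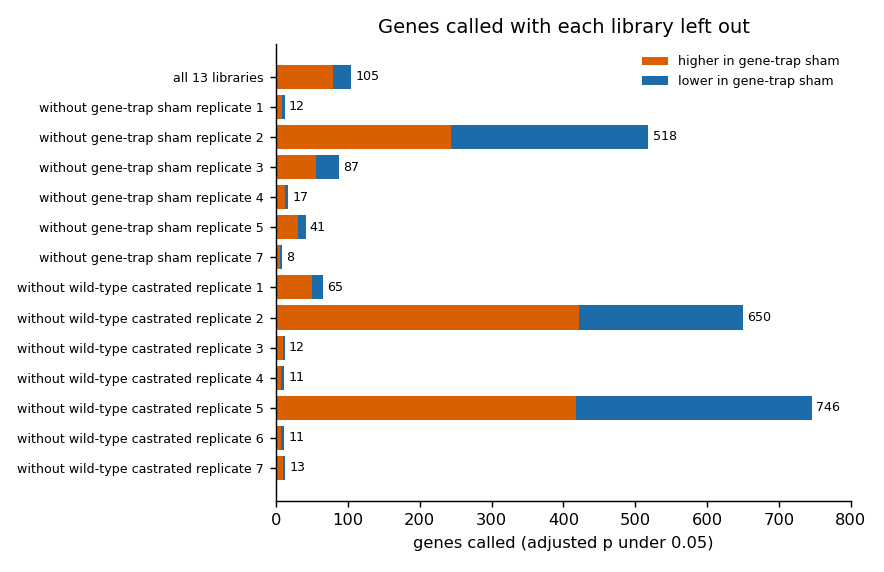
Bars give the number of genes called at an adjusted p under 0.05 with all 13 libraries and with each library left out, split by direction. The count runs from 8 without gene-trap sham replicate 7 to 746 without wild-type castrated replicate 5.

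Libraries of the 2 groups were slightly farther from each other than from their own group. The median root mean square difference in log2 CPM was 0.577 between a gene-trap sham and a wild-type castrated library, against 0.514 among gene-trap sham and 0.50 among wild-type castrated libraries. The median distance to wild-type sham libraries was 0.665 for gene-trap sham and 0.749 for wild-type castrated. Principal components were taken from the log2 CPM of all 26 libraries. On component 1, with 35.6% of the variance, scores were −3.91 ± 20.9 (SD, n = 6) in gene-trap sham and −20.7 ± 16.9 (SD, n = 7) in wild-type castrated (exact permutation test, two-sided, p = 0.131, adjusted p = 0.295). Wild-type sham libraries had a mean of 39.8 on that component. On component 3, with 7.59% of the variance, gene-trap sham libraries scored −14.2 ± 6.51 (SD, n = 6) and wild-type castrated libraries 13.4 ± 12.6 (SD, n = 7). This was the 1 of 9 library values tested that separated the groups (exact permutation test, two-sided, p = 0.00233, adjusted p = 0.0210, where 0.000583 is the smallest p the 1716 splits allow).

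The separation on component 3 had 1 exception. Gene-trap sham scores ran from −21.8 to −3.78, and wild-type castrated scores from −10.4 to 29.1. Wild-type castrated replicate 2 held the score of −10.4 and so lay among the gene-trap sham libraries, while the other 6 wild-type castrated libraries were all above 0. Without it the difference in component 3 went from −27.6 to −32.0, as removing the exception must, and the genes called went from 105 to 650, as above. Wild-type sham libraries, at 7.66 ± 6.07 (SD, n = 6), lay with wild-type castrated on this component, and gene-trap castrated libraries, at −7.77 ± 7.78 (SD, n = 7), lay with gene-trap sham.

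**Figure D3:**
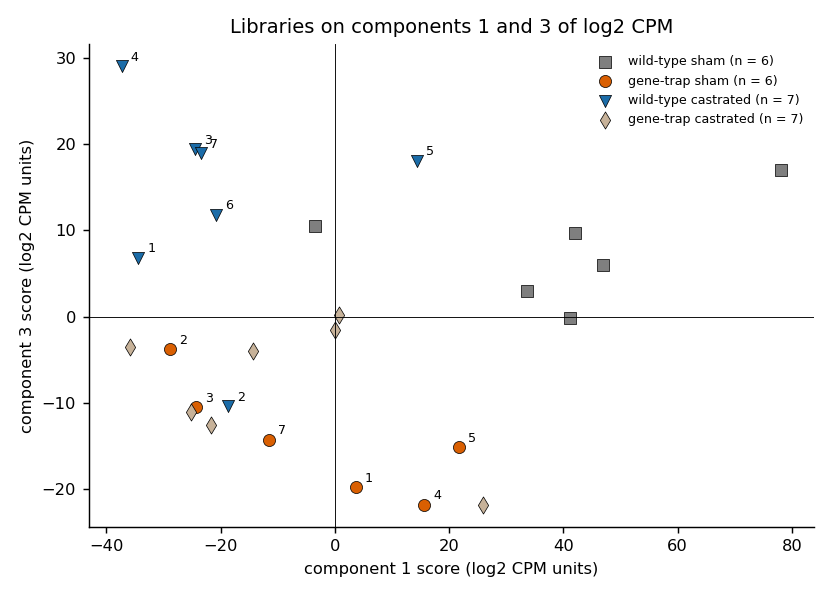
Points are the 26 libraries by their scores on component 1 (x axis) and component 3 (y axis) of log2 CPM, with replicate numbers beside the 2 groups compared. Gene-trap sham libraries lie between −21.8 and −3.78 on component 3, and 6 of the 7 wild-type castrated libraries lie above 0.

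The trapped gene and a Y-linked neighbour led the list. Uty (chrY:1096861-1245759, coordinates of GRCm38 as in the files) had 19 counts in all 6 gene-trap sham libraries together, from 1 to 6 per library, and 496 counts in the 7 wild-type castrated libraries, from 51 to 100. Relative to library size this is 21.9 times as much in wild-type castrated, with an exact 95% interval of 13.9 to 36.7 that covers counting error only. The fitted difference was −4.33 log2 (SE 0.279, edgeR adjusted p = 1.36e-08), and the groups did not overlap, as for 0.204% of all genes with every gene-trap sham library lower. Uty counts thus followed the genotype labels in all 13 libraries.

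Ddx3y (chrY:1260771-1286629), a Y-linked RNA helicase gene next to Uty, was lower in gene-trap sham as well. Its level ran from 9.33 to 24.9 CPM (median 15.5) in gene-trap sham and from 92.3 to 115 CPM (median 110) in wild-type castrated, with no overlap (−2.73 log2, SE 0.208, edgeR adjusted p = 1.04e-06). Wild-type sham libraries, at 102 ± 8.13 CPM (SD, n = 6), lay at the castrated level. Eif2s3y (chrY:1010543-1028847), which encodes a translation initiation factor subunit on the other side of Uty, was higher in gene-trap sham, at 7.36 ± 3.0 CPM (SD, n = 6) against 2.45 ± 0.728 CPM (SD, n = 7), by 1.57 log2 (SE 0.271, edgeR adjusted p = 0.0145). Its lowest gene-trap sham library, at 3.08 CPM, lay below the highest wild-type castrated library, at 3.72 CPM. The demethylase gene Kdm5d, also Y-linked, did not pass, at 2.89 ± 0.477 and 4.31 ± 0.963 CPM (edgeR adjusted p = 0.120).

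Among the X-linked homologues of these 4 genes none passed the test. Ddx3x, an RNA helicase gene, had 203 ± 14.5 CPM (SD, n = 6) in gene-trap sham and 172 ± 13 CPM (SD, n = 7) in wild-type castrated, and its groups did not overlap (0.22 log2, edgeR adjusted p = 0.153). A full separation of this kind, with every gene-trap sham library above every wild-type castrated library, was seen for 0.535% of all genes tested. Kdm6a had 7.29 ± 1.64 and 9.04 ± 1.97 CPM, with a difference of −0.33 log2 and a 95% interval from −0.71 to 0.04. Kdm5c and Eif2s3x differed by 0.06 and −0.11 log2. In the 400 bases at the end of its transcripts, 60.9% of 31-base words of Eif2s3x also occur in other genes, so its value is uncertain. Of the 27 genes of the H3K27 and H3K4 methylation machinery tested, 1 passed, and that was Uty itself. Over all genes tested, 0.221% were called lower.

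For some called genes wild-type castrated was the group farther from wild-type sham, which says nothing of whether gene-trap sham departed as well. This held for 20 of the 26 genes lower in gene-trap sham and for 28 of the 79 higher genes. C3 (chr17:57203970-57228136), which encodes the central component of the complement cascade, had the smallest p of these. Its level ran from 32.1 to 63.8 CPM (median 42.3) in gene-trap sham and from 13.6 to 27.1 CPM (median 17.1) in wild-type castrated. Every gene-trap sham library was above every wild-type castrated library. The difference was 1.20 log2 (SE 0.177, edgeR adjusted p = 0.00655), and wild-type sham libraries held 41.7 ± 5.82 CPM (SD, n = 6).

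Penk and Ifi205 behaved in the same way at lower levels. Penk, the precursor gene of the enkephalin peptides, ran from 4.49 to 7.24 CPM (median 5.98) in gene-trap sham and from 0.589 to 2.90 CPM (median 2.45) in wild-type castrated, a difference of 1.55 log2 (SE 0.287, edgeR adjusted p = 0.0232). Wild-type sham held 5.25 ± 1.77 CPM and gene-trap castrated 2.59 ± 0.681 CPM, so the groups sorted by surgery. Ifi205, a member of the interferon-inducible p200 family, ran from 3.22 to 8.72 CPM in gene-trap sham and from 0.814 to 2.51 CPM in wild-type castrated (1.6 log2, SE 0.318, edgeR adjusted p = 0.0295). Gene-trap sham replicate 7 held the value of 8.72 CPM, and the others were at most 4.59 CPM. Ifi205 was no longer called without gene-trap sham replicate 1 or 7 or wild-type castrated replicate 4, 6 or 7, and Penk without gene-trap sham replicate 7 or wild-type castrated replicate 6. In the 400 bases at the end of its transcripts, 46.6% of 31-base words of Ifi205 also occur in other genes, so its value is uncertain.

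Slc25a29, a mitochondrial carrier of basic amino acids, had 9.84 ± 2.28 CPM (SD, n = 6) in gene-trap sham, 5.33 ± 0.625 CPM (SD, n = 7) in wild-type castrated and 12 ± 2.14 CPM (SD, n = 6) in wild-type sham. The difference between the groups compared was 0.86 log2 (edgeR adjusted p = 0.0232), and the libraries did not overlap. It was lost in 6 of the 13 fits that left a library out.

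In the other direction, Txnip was higher in wild-type castrated hearts. Txnip (chr3:96557957-96561883) encodes a thioredoxin-binding protein that restrains glucose uptake. Its level ran from 373 to 652 CPM (median 412) in gene-trap sham and from 603 to 1439 CPM (median 1008) in wild-type castrated, a difference of −1.10 log2 (SE 0.181, edgeR adjusted p = 0.0145). The groups overlapped by 1 library on each side. Wild-type sham libraries spread from 189 to 956 CPM and overlapped both groups. Gene-trap castrated libraries held 433 ± 160 CPM (SD, n = 7). Txnip was no longer called without gene-trap sham replicate 7 or in the fit to all 4 groups (edgeR adjusted p = 0.0640). Txnip was the 1 gene called of the 30 genes of glucose use tested, against 0.221% of all genes called lower. At an unadjusted p under 0.05, 2 of the 30 were higher and 5 lower, against 10.1% of all genes in each direction. Of the others, Pdk4, an inhibitor of pyruvate oxidation, had 16.2 ± 12.5 and 42.9 ± 20.5 CPM (adjusted p = 0.129), and Pfkfb2 had 7.21 ± 4.45 and 15.0 ± 4.84 CPM (adjusted p = 0.0986).

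Other lower genes were called less stably. Mpeg1, which encodes a pore-forming protein of macrophages, had 2.55 ± 1.46 CPM (SD, n = 6) in gene-trap sham and 7.23 ± 1.78 CPM (SD, n = 7) in wild-type castrated, with no overlap (−1.51 log2, edgeR adjusted p = 0.0232). None of the 14 macrophage markers tested was called, and their summed level ran from 445 to 640 CPM in gene-trap sham and from 396 to 751 CPM in wild-type castrated. By unadjusted p, 4 of these markers were higher and none lower at the 0.05 level, against 10.1% of all genes in each direction. The median over the markers was 0.11 log2, opposite in sign to Mpeg1. Their part in the Mpeg1 difference was not tested. Unc5b, a netrin receptor of the endothelium, Gas1, a hedgehog co-receptor, and Tnfrsf21, a death receptor, were lower by −0.65, −0.85 and −0.68 log2 (edgeR adjusted p = 0.0406, 0.0406 and 0.0420). Stard13, a RhoGAP gene, and Ttyh3, a gene of a membrane channel family, were lower by −1.03 and −0.68 log2 (edgeR adjusted p = 0.0406 and 0.0371). For all 5 the wild-type sham mean lay nearer to gene-trap sham. Gatm, an enzyme of creatine synthesis, had 0.877 ± 0.282 and 2.50 ± 1.10 CPM (−1.51 log2, edgeR adjusted p = 0.0420). For Igsf1, an immunoglobulin superfamily gene lower by −0.63 log2 (edgeR adjusted p = 0.0406), the wild-type sham level of 24.2 ± 4.84 CPM lay near the castrated level of 23.4 ± 3.07 CPM rather than the gene-trap sham level of 15.3 ± 2.66 CPM. With a library left out, Mpeg1 remained called in 6 of 13 fits, Unc5b, Tnfrsf21, Stard13 and Ttyh3 in 5 each, and Gas1, Gatm and Igsf1 in 4 each.

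For the other called genes gene-trap sham was the group farther from wild-type sham, again without regard to whether wild-type castrated departed too. These were 51 of the 79 genes higher in gene-trap sham and 6 of the 26 lower genes. Hmgn1 (chr16:96120618-96127729), which encodes a nucleosome-binding protein, ran from 170 to 251 CPM (median 225) in gene-trap sham and from 101 to 168 CPM (median 120) in wild-type castrated. All gene-trap sham libraries were higher, by 0.73 log2 (SE 0.121, edgeR adjusted p = 0.0139). Wild-type sham held 129 ± 21.8 CPM (SD, n = 6), close to the 126 ± 21.8 CPM (SD, n = 7) of wild-type castrated. Sbno1, a helicase family gene, had 120 ± 11.2 CPM in gene-trap sham, 82.0 ± 9.93 CPM in wild-type castrated and 84.4 ± 11.4 CPM in wild-type sham (0.54 log2, edgeR adjusted p = 0.0225).

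Others lay between. Cp, which encodes the copper-carrying ferroxidase ceruloplasmin, had 53.3 ± 4.8 CPM in gene-trap sham, 36.6 ± 3.68 CPM in wild-type castrated and 43.0 ± 3.67 CPM in wild-type sham (0.53 log2, edgeR adjusted p = 0.0232). Ccnk, a cyclin of transcription kinases, had 135 ± 16.5, 93.0 ± 9.66 and 115 ± 16.3 CPM in the same order (0.52 log2, edgeR adjusted p = 0.0232). Gene-trap sham was farther from wild-type sham for Cp (0.31 log2, against −0.23 log2 for wild-type castrated). Wild-type castrated was farther for Ccnk (−0.31 log2, against 0.22 log2 for gene-trap sham). For both genes the gene-trap sham and wild-type castrated libraries did not overlap. Sbno1, Cp and Ccnk remained called in 7, 8 and 6 of the 13 fits that left a library out.

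Among the gene lists apart from the Y-linked genes and their X homologues, of which 3 of 8 were called, heat shock genes had the most members called. Chaperones of this list keep proteins folded, and their transcription is driven by heat shock factors that bind repeats of the unit nGAAn near the start of the gene. Of 25 members tested, 5 were higher in gene-trap sham, none was lower and 20 were not called, against 0.67% of all genes called higher. By unadjusted p, 15 were higher and 1, the small heat shock gene Hspb7, was lower at the 0.05 level, against 10.1% of all genes in each direction. The median difference of the list was 0.40 log2, and −0.01 over all genes tested. The count of 5 became 1 without gene-trap sham replicate 7, 11 without wild-type castrated replicate 2 and 10 without wild-type castrated replicate 5, while the median of the list stayed between 0.34 and 0.46 log2 in all alternatives.

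Hspb1 and Dnaja1 led the list, and the 250 bases before their transcription starts are shown because they hold pairs of the unit that heat shock factors bind. The sequences are RefSeq's on GRCm38.p6, written 5′ to 3′ on the strand of the gene, and capitals mark matches to GAANNTTC, a pair of facing units, on either strand.
Hspb1, chr5:135887669-135887918, plus strand: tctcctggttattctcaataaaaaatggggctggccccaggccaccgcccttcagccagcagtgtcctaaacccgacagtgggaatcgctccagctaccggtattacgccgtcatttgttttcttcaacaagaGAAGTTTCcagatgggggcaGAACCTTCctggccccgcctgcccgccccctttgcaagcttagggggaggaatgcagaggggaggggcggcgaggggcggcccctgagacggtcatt
Dnaja1, chr4:40722218-40722467, plus strand: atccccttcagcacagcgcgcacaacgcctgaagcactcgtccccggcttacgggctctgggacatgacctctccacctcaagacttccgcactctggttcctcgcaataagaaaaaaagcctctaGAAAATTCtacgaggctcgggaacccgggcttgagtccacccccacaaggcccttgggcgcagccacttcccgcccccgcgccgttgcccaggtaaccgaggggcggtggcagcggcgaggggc
Hspb1 held 2 matches, starting 117 and 97 bases before the start, and Dnaja1 held 1 in the window shown, out of 3 for its starts, beginning 124 bases before that start. Of 8986 tested genes with a window in the RefSeq table, 530 (5.90%) held a match. Of the heat shock list 7 of 18 did, and of its 5 called members 3 did, the other match being in 1 of the 2 windows of Hspd1. The matches describe letters in these windows and say nothing of binding.

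Hspb1, which encodes a small heat shock protein abundant in muscle, ran from 193 to 281 CPM (median 208) in gene-trap sham and from 107 to 152 CPM (median 143) in wild-type castrated. No library overlapped, and the difference was 0.67 log2 (SE 0.110, edgeR adjusted p = 0.0139). Its wild-type sham level of 207 ± 33.9 CPM (SD, n = 6) was that of gene-trap sham. Dnaja1, a co-chaperone of Hsp70, ran from 96.9 to 154 CPM (median 129) in gene-trap sham and from 69.1 to 84.7 CPM (median 78.4) in wild-type castrated (0.70 log2, SE 0.118, edgeR adjusted p = 0.0145). Here wild-type sham, at 77.9 ± 20.3 CPM (SD, n = 6), was at the castrated level. The 2 leading heat shock genes thus differed in which group had departed from wild-type sham.

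The other called members followed Dnaja1 or lay between. Hspd1, the mitochondrial chaperonin, had 341 ± 29.4 CPM in gene-trap sham, 249 ± 28.1 CPM in wild-type castrated and 239 ± 18.4 CPM in wild-type sham (0.44 log2, edgeR adjusted p = 0.0406). Chordc1, an Hsp90 co-chaperone, had 97.8 ± 12.5, 65.5 ± 14.2 and 58.0 ± 9.15 CPM (0.57 log2, edgeR adjusted p = 0.0420). Hsph1, a nucleotide exchange factor of Hsp70, ran from 71.2 to 156 CPM in gene-trap sham and from 41.6 to 75.7 CPM in wild-type castrated (0.74 log2, edgeR adjusted p = 0.0445). Wild-type castrated replicate 2 was the highest of its group for Chordc1, at 96.1 CPM, and its next library was at 69.2 CPM. With a library left out, Hspb1 stayed called in 13 of 13 fits, Dnaja1 in 12, Hspd1 in 6, Chordc1 in 4 and Hsph1 in 3. Hspd1, Chordc1 and Hsph1 were all lost without gene-trap sham replicate 1, 4 or 7 or wild-type castrated replicate 3, 4, 6 or 7. Transcript ends of Hspb1, Dnaja1 and Hspd1 share 40.5%, 30.4% and 46.1% of their 31-base words with other genes, and Hspd1 overlaps Hspe1 on the other strand, so these values are uncertain.

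**Figure D4:**
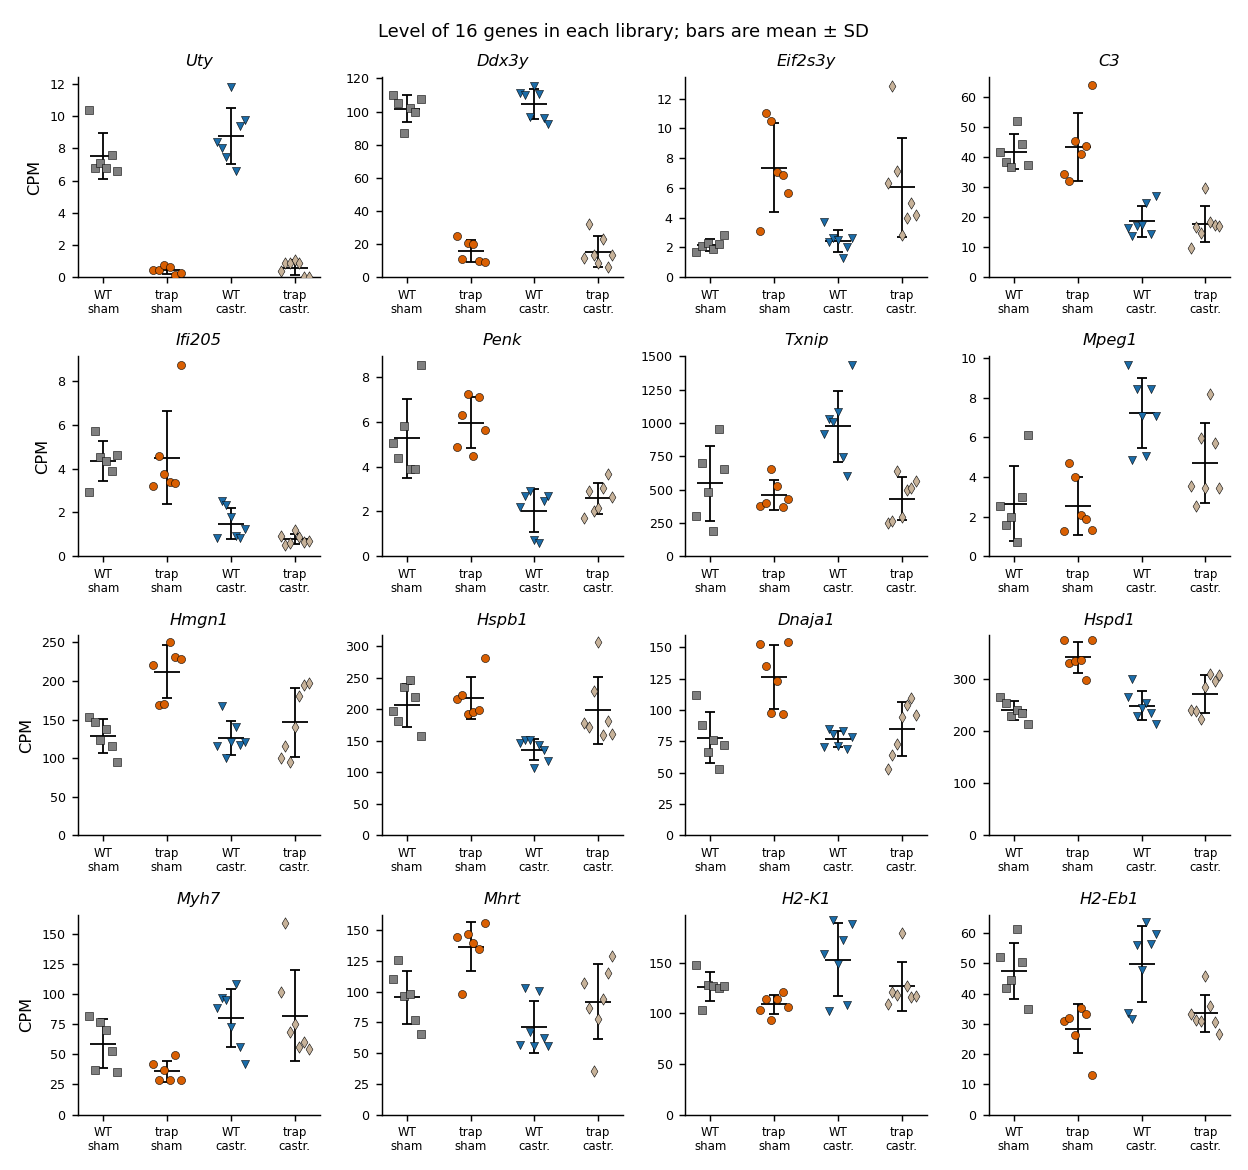
CPM (y axis, from 0) of 16 genes in each of the 26 libraries, by group on the x axis, with bars for mean ± SD. C3, Ifi205 and Penk in gene-trap sham lie at the wild-type sham level, and Hmgn1, Dnaja1 and Hspd1 lie above it. Uty runs from 0.125 to 0.724 CPM in gene-trap sham and from 6.60 to 11.8 CPM in wild-type castrated.

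Nuclear genes of the respiratory chain had medians above 0 with few calls, while the 10 mitochondrially encoded genes tested had a median of −0.10 log2. Of those 10 genes 6 were below 0, and 2 were lower and none higher at an unadjusted p under 0.05. Of 37 nuclear genes of respiratory complex I tested, 1 was called, Ndufb11, at 611 ± 66.4 CPM (SD, n = 6) in gene-trap sham, 442 ± 68.3 CPM (SD, n = 7) in wild-type castrated and 621 ± 96.0 CPM (SD, n = 6) in wild-type sham (0.46 log2, edgeR adjusted p = 0.0472), against 0.67% of all genes called higher. Its transcript end shares 34.3% of its 31-base words with other genes and overlaps Rbm10 on the other strand, so its value is uncertain. By unadjusted p, 14 of the 37 were higher at the 0.05 level and none lower, against 10.1% of all genes in each direction, and the median over the list was 0.17 log2. Ndufb10, Ndufb5 and Ndufv3 had differences of 0.44, 0.40 and 0.44 log2 and adjusted p of 0.0555, 0.0582 and 0.0664. Complexes III and IV had no gene called of 23 by edgeR and 10 higher at an unadjusted p under 0.05, with a median of 0.22 log2. DESeq2 called 5 of them, all higher, and 622 of all 11783 genes. Cox6b1 had 4142 ± 903 and 2867 ± 428 CPM (adjusted p = 0.0555), and Cox7a1 had 4193 ± 604 and 3022 ± 514 CPM (adjusted p = 0.0622).

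The calls in these lists came and went with wild-type castrated replicate 2 and replicate 5. Without the one 9 complex I genes were called higher, and without the other 13 were, while 5 were called without gene-trap sham replicate 2 and none without any other library. For Cox7a1, Ndufb10 and Uqcrb, wild-type castrated replicate 2 was the highest of its group, at 4074, 835 and 974 CPM. The summed complex I level ran from 26793 to 30975 CPM in gene-trap sham and from 22541 to 29873 CPM in wild-type castrated, so the groups overlapped. ATP synthase genes had 4 of 17 higher at an unadjusted p under 0.05 and none called by edgeR, and cytosolic ribosomal protein genes 18 of 78 higher, 1 lower and none called. The share of all genes at that p was 10.1% in each direction. DESeq2 called none of the ATP synthase genes and 3 of the ribosomal protein genes, all higher, and 622 of all 11783 genes.

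Among mitochondrial ribosomal protein genes, a set picked out after the values were seen, 5 of 76 tested were called higher and none lower, against 0.67% of all genes called higher, with a median of 0.18 log2. Mrps22, a subunit of the small particle, had 24.1 ± 3.32 CPM in gene-trap sham and 14.8 ± 2.42 CPM in wild-type castrated, with no overlap (0.69 log2, edgeR adjusted p = 0.0225). The large-subunit genes Mrpl13, Mrpl51, Mrpl34 and Mrpl18 were higher by 0.47, 0.66, 0.41 and 0.43 log2 (edgeR adjusted p from 0.0353 to 0.0445). With a library left out, Mrps22 remained called in 7 of 13 fits and these 4 genes in 5, 4, 5 and 3. For Mrpl51 wild-type castrated replicate 2, at 236 CPM, lay with the gene-trap sham libraries, and the next of its group was at 137 CPM.

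Antigen presentation genes had the lowest median of the lists, yet none passed. These genes load peptides on class I and class II molecules for T cells. Of 18 tested, 16 were below 0, 12 were lower at an unadjusted p under 0.05 and none was higher, against 10.1% of all genes in each direction, with a median of −0.60 log2. edgeR called none and DESeq2 called 8, all lower, where DESeq2 called 622 of all 11783 genes. H2-Eb1, a class II chain gene, ran from 13.1 to 35.1 CPM (median 31.4) in gene-trap sham and from 31.5 to 63.6 CPM (median 55.95) in wild-type castrated (−0.83 log2, edgeR adjusted p = 0.0597). Cd74, the class II invariant chain, had 15.3 ± 5.93 and 28.5 ± 6.23 CPM (adjusted p = 0.0622), and H2-Aa 62.8 ± 22.8 and 110 ± 21.3 CPM (adjusted p = 0.0725). For these 3 class II genes the wild-type sham means were 47.6, 28.6 and 92.3 CPM.

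H2-K1, a class I heavy chain gene, had 109 ± 9.71 CPM in gene-trap sham, 153 ± 36.2 CPM in wild-type castrated and 126 ± 14.3 CPM in wild-type sham (−0.51 log2, edgeR adjusted p = 0.0690). Without wild-type castrated replicate 2, edgeR called 8 members of the list, all lower, without gene-trap sham replicate 2 it called 6 and without wild-type castrated replicate 5 it called 3. Of 14 lymphocyte markers, 2 passed the filter. The T cell gene Cd3e was at 0 in 9 of the 13 libraries and the B cell gene Cd79a in 11, while Ptprc, Ighm, Cd4, Cd79b, Ms4a1 and Trbc2 were read in all 13. The list had a summed level from 10.0 to 30.6 CPM in gene-trap sham and from 14.3 to 27.4 CPM in wild-type castrated. Class I genes share much of their sequence, with 27.4% of the words at the end of H2-K1 found in other genes, so their values are uncertain.

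Of 41 interferon response genes, Ifi205 was the 1 member called, and it was higher. Over all genes tested, 0.67% were called higher. By unadjusted p, 2 were higher and 6 lower at the 0.05 level, against 10.1% of all genes in each direction. Of the 41, 11 were above 0 and 30 below, with a median of −0.15 log2. Psmb9, an immunoproteasome subunit, had 7.99 ± 1.98 and 12.7 ± 3.31 CPM (adjusted p = 0.0748), and Gbp7 and Igtp, both GTPases induced by interferon, differed by −0.45 and −0.62 log2 (adjusted p = 0.120 and 0.153). In the complement list C3 was the 1 member called of 15, and it was higher. At an unadjusted p under 0.05, 3 of its members were higher and 3 lower. Cd55, a membrane inhibitor of complement, had 4.09 ± 0.557 and 5.92 ± 1.06 CPM (adjusted p = 0.0970), and C5ar1, the receptor of a cleaved complement fragment, 5.55 ± 1.92 and 3.57 ± 0.887 CPM (adjusted p = 0.137).

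**Figure D5:**
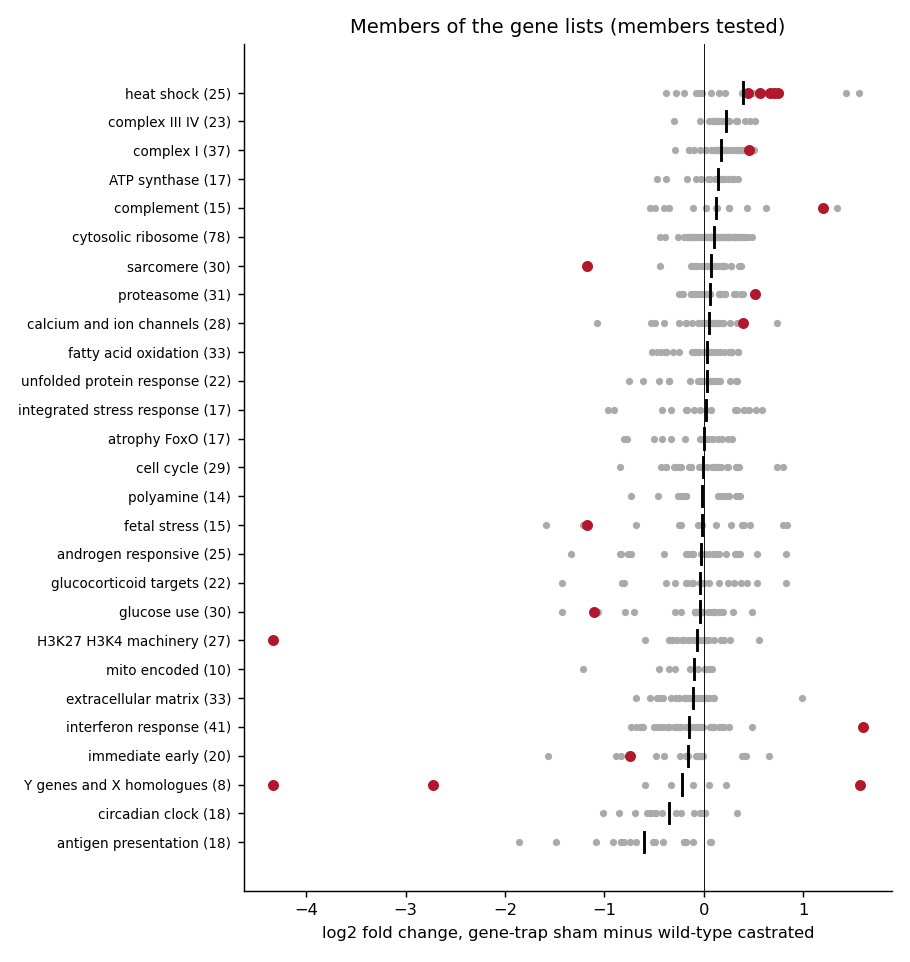
Each point is a member of a gene list at its log2 fold change, gene-trap sham minus wild-type castrated, with lists ordered by their median (black bar) and the number of members tested in brackets. Red points passed an adjusted p under 0.05; 5 of 25 heat shock genes did, all higher, and none of 18 antigen presentation genes.

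The beta myosin heavy chain gene Myh7 and the RNA read from its other strand moved apart. Myh7 (chr14:54970688-54994634), the slow cardiac myosin that adult mouse ventricles express weakly, ran from 28.5 to 49.6 CPM (median 32.8) in gene-trap sham and from 41.9 to 109 CPM (median 88.4) in wild-type castrated, a difference of −1.17 log2 (SE 0.202, edgeR adjusted p = 0.0225). Wild-type castrated replicate 7, at 41.9 CPM, overlapped the gene-trap sham range, and the call was lost without gene-trap sham replicate 4 or 7 or wild-type castrated replicate 3. Mhrt (chr14:54968678-54974349), a long noncoding RNA transcribed from the strand opposite to Myh7, ran from 98.1 to 155 CPM (median 142) in gene-trap sham and from 55.5 to 103 CPM (median 62.0) in wild-type castrated, a difference of 0.92 log2 (SE 0.156, edgeR adjusted p = 0.0145). The groups overlapped, and the call was lost without gene-trap sham replicate 7. Wild-type sham lay between the groups for both genes, at 58.9 ± 20.3 CPM for Myh7 and 95.5 ± 21.5 CPM for Mhrt. Their exons overlap, and whether the authors counted by strand is not stated, so reads of the pair may not be fully told apart. Transcript ends of Myh7 also share 25.8% of their 31-base words with other genes, so its value is uncertain.

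Other sarcomere genes did not follow Myh7, which was the 1 of 30 called. Csrp3, a Z-disc protein gene, had 1553 ± 262 and 1207 ± 193 CPM (adjusted p = 0.122), and Nexn and Xirp2, genes of actin-binding proteins, differed by 0.38 and 0.27 log2 (adjusted p = 0.130 and 0.183). In the fetal and stress gene list Myh7 was again the 1 member called of 15. At an unadjusted p under 0.05, 2 members of that list were higher and 4 lower. Fhl1 had 118 ± 14.3 and 84.5 ± 15.1 CPM (adjusted p = 0.0555), while the matrix genes Postn and Ctgf differed by −0.69 and −1.22 log2 (adjusted p = 0.111 and 0.112). Kcnj2, the inward rectifier channel gene, had 7.39 ± 4.00 and 15.4 ± 6.23 CPM and Hrc, a calcium-binding protein gene of the sarcoplasmic reticulum, 890 ± 151 and 699 ± 102 CPM (adjusted p = 0.111 and 0.121).

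Lists of hormone, clock and stress genes held few calls. None of 25 androgen-responsive genes tested was called by edgeR, against 0.891% of all genes. By unadjusted p 4 were higher and 6 lower at the 0.05 level, against 10.1% of all genes in each direction. DESeq2 called 1 higher and 3 lower, and 622 of all 11783 genes. Igfbp3, an IGF-binding protein gene, ran from 4.99 to 21.5 CPM in gene-trap sham and from 18.7 to 46.4 CPM in wild-type castrated (−1.34 log2, adjusted p = 0.0735), and Steap4, a metalloreductase gene, differed by −0.84 log2 (adjusted p = 0.127). The polyamine genes Amd1 and Sat1 differed by 0.37 and −0.73 log2 (adjusted p = 0.0822 and 0.0984). Transcript ends of Amd1 share 81.0% of their 31-base words with other genes, so its value is uncertain. Circadian clock genes had a median of −0.35 log2, with 7 of 18 lower and none higher at an unadjusted p under 0.05, against 10.1% of all genes in each direction. None was called by edgeR, while DESeq2 called 2. The clock repressor gene Nr1d1 had 17.5 ± 4.03 and 25.8 ± 4.97 CPM (adjusted p = 0.0673), and Hlf, Npas2 and Bhlhe40 differed by −0.53, −1.02 and −0.42 log2 (adjusted p from 0.0912 to 0.151). The median moved to −0.16 log2 without wild-type castrated replicate 1.

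Zfp36, which encodes a protein that speeds mRNA decay, was the 1 immediate early gene called of 20, at 5.92 ± 1.05 and 9.82 ± 1.96 CPM (−0.74 log2, edgeR adjusted p = 0.0445). Over all genes tested, 0.221% were called lower and 0.67% higher. Of the 20, 16 were below 0, and 2 were higher and 5 lower at an unadjusted p under 0.05. Ier3, Klf2 and Jund of that list differed by 0.43, −0.48 and −0.40 log2 (adjusted p from 0.0817 to 0.140). Psma3 was the 1 proteasome gene called of 31, at 66.9 ± 4.96 and 46.3 ± 9.44 CPM (0.52 log2, edgeR adjusted p = 0.0445). At an unadjusted p under 0.05, 6 proteasome genes were higher and none lower. Transcript ends of Psma3 share 26.2% of their 31-base words with other genes, so its value is uncertain. No extracellular matrix gene of 33 was called by edgeR. At an unadjusted p under 0.05, 1 was higher and 7 lower, against 10.1% of all genes in each direction. DESeq2 called 1 higher and 3 lower, and 622 of all 11783 genes. Col15a1 and Lum differed by −0.44 and −0.43 log2 and the protease inhibitor gene Timp1 by 0.99 log2 (adjusted p = 0.0751, 0.0875 and 0.0825). Zfp36 and Psma3 were both lost in most of the fits that left a library out, as Zfp36 stayed called in 3 of 13 and Psma3 in 4.

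At the same distance from wild-type sham, many genes did not tell the groups apart. Fabp4, the fatty acid carrier of capillary endothelium and fat cells, had 1279 ± 374 CPM (SD, n = 6) in gene-trap sham, 1314 ± 362 CPM (SD, n = 7) in wild-type castrated and 509 ± 266 CPM (SD, n = 6) in wild-type sham. The direct difference of −0.05 log2 had a 95% interval from −0.45 to 0.36. Map1lc3a, an autophagosome protein gene, had 1078 ± 243, 987 ± 185 and 2911 ± 887 CPM in the same order, with a direct interval from −0.18 to 0.41 log2. These genes were chosen for lying on the same side of wild-type sham in both groups with a direct interval inside ±0.5 log2, so their agreement is a description and no test, and both sides share the wild-type sham libraries. Those libraries also had another mean GC slope and fewer genes with a read, as given above, and the part of this was not tested.

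By that choice, Slco5a1, Wt1, Polr3g and Gbp3 were the other genes on the higher side. Wt1, a transcription factor of the epicardium, had 7.70 ± 2.95, 7.57 ± 0.901 and 3.31 ± 1.43 CPM in gene-trap sham, wild-type castrated and wild-type sham. Gbp3, an interferon-induced GTPase gene, had 9.19 ± 1.91, 9.42 ± 1.64 and 4.49 ± 0.970 CPM. Slco5a1, a gene of the organic anion transporter family, and Polr3g, a subunit gene of RNA polymerase III, had direct differences of 0.04 and −0.01 log2. On the lower side were Trim54, Fzr1, Nrtn and Mier2 beside Map1lc3a. Trim54, a ubiquitin ligase gene of the sarcomere, had 232 ± 36.9, 226 ± 58.8 and 562 ± 161 CPM. Fzr1, an activator of the anaphase-promoting complex, Nrtn, a neurotrophic factor gene, and Mier2, a transcription regulator gene, had direct differences of 0.02, −0.07 and 0.19 log2.

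Markers of cell types held no call by edgeR in any list, while DESeq2 called 2 fibroblast, 2 endothelial, 1 erythroid and 1 skeletal muscle marker. Over all 11783 genes DESeq2 called 622, and by unadjusted p 10.1% were under 0.05 in each direction. Of the lists, 10 of 12 endothelial markers were below 0, with a median of −0.19 log2 and 2 lower and none higher at an unadjusted p under 0.05. Of 10 fibroblast markers 8 were below 0, with a median of −0.10 log2, and 1 was higher and 2 lower at that p. Atrial markers had a median of 0.37 log2 over 9 tested, with a summed level from 1069 to 1609 CPM in gene-trap sham and from 869 to 1386 CPM in wild-type castrated, and 8 of the 9 were above 0. At an unadjusted p under 0.05, 1 of these 9 was higher and none lower. Myl7, the atrial light chain gene, had 53.3 and 29.9 CPM, Myl4 54.9 and 30.1 CPM and Sln 19.3 and 11.1 CPM in gene-trap sham and wild-type castrated, and each was read in every library. The atrial markers Kcnk3, Clu and Pam lay closer, at 206 and 186, 265 and 220, and 399 and 396 CPM. Bmp10, also of the atria, was at 0 in all 13. Smooth muscle and pericyte markers had a median of 0.21 log2, with 6 above 0 and 5 below. At an unadjusted p under 0.05, 2 of them were higher and 1 lower. In bulk tissue, fewer cells of a type and less RNA per cell cannot be told apart, and the part of these lists in the differences above was not tested.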

How the data were processed

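Reads were counted per gene by the authors. The deposited tables hold raw counts, not normalized, in 2 files joined here on the Ensembl gene identifier; per the submitters' processing notes the tools were CASAVA 1.4, FastQC, STAR, featureCounts 1.6.0 and DESeq2 1.22.2, with builds mm10 and GRCm38, and per the labels' protocols libraries were QuantSeq 3′ FWD. The aligner's settings and the strand setting are not given in the sources used here. Of the table entries, 47642 genes had counts, 4984 had none and were left out, as were 5 summary entries; reads without a unique alignment, listed there, amount to between 41.9% and 44.6% in the 13 libraries.

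The 13 libraries were fitted in edgeR 4.0.16 (R 4.3.3) with filterByExpr, TMM scaling and robust quasi-likelihood, gene-trap sham minus wild-type castrated, with p-values adjusted over all genes. Calls are an adjusted p under 0.05. SEs are |log2 fold change| over the root of F. CPM use TMM factors of all 26 libraries, and log2 CPM a prior count of 2. DESeq2 1.42.0 and limma 3.58.1 were alternatives. Gene names come from the files; GENCODE M21 gave the same start and end for 93.7% of shared genes. Tested on simulated counts for this contrast and 11695 genes, edgeR called 85.9% of genes changed by 1 log2 and 20.0% of genes changed by 0.5 log2, with 8 false calls, and 95.0% of intervals held the true value.

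Members, lists and tests were chosen with earlier results of these data known. Named genes are the Y-linked genes with their X homologues, the 12 genes with the smallest p in each direction (without unnamed loci), up to 4 members per list and up to 5 genes per side with matching distances from wild-type sham; Hsph1, the mitochondrial ribosomal genes and Acta2 were added after their values were seen. Some genes that the rule names are not reported here.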

Additional observations from a re-analysis of the deposited data

Results flagged for a closer look

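Of 210 groups of values tested, 21 held a library whose gap to the nearest other exceeded Dixon's critical value, and chance alone gives about 1 in 20. Wild-type castrated replicate 2 was set apart upward for Chordc1 (96.1 CPM), Cox7a1 (4074 CPM), Mrpl18 (170 CPM), Mrpl51 (236 CPM), Mrps22 (19.8 CPM), Ndufb10 (835 CPM) and Uqcrb (974 CPM), in each case toward the gene-trap sham levels. Gene-trap sham replicate 7 was set apart upward for Acta2 (549 CPM against 143 CPM for the next), Fhl1 (145.5 CPM), Hspb1 (281 CPM), Ier3 (136 CPM), Ifi205 (8.72 CPM) and Timp1 (7.74 CPM). Gene-trap sham replicate 2 was set apart upward for Jund (62.2 CPM) and Wt1 (13.3 CPM) and downward for Mhrt (98.1 CPM). Among the other wild-type castrated libraries, replicate 1 was high for Hlf (78.9 CPM), replicate 4 for Steap4 (34.45 CPM), replicate 7 for Acta2 (157 CPM) and replicate 5 for Fzr1 (46.2 CPM) and for the component 1 score (14.3).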

How the results depend on the processing

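The count of 105 called genes depended on most choices. It was 64 with DESeq2 size factors in edgeR, 19 with total counts as the only scaling, 622 with DESeq2, 1530 with limma voom and sample weights, 229 without a filter, 3 at an adjusted p under 0.01 and 1704 with the first within-group component as a covariate. With 1 library left out it ran from 8 to 746. The cause was not tested. In the one fit to all 4 groups, the named genes Txnip, Ttyh3, Tnfrsf21, Chordc1, Zfp36, Psma3 and Ndufb11 were no longer called. The share of higher calls, 79 of 105, was 335 of 622 with DESeq2, 774 of 1530 with limma voom 697 of 1704 with the covariate and 243 of 518 without gene-trap sham replicate 2, so that lower calls outnumbered higher ones in the last 2. No scaling moved the median of all genes by over 0.1 log2. The counts with intervals inside ±0.5 and ±1 log2 stayed within 1.5 times, at 4609 to 5173 and 10107 to 10407 with a library left out.

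Replicate numbers did not pair the libraries: deviations of same-numbered libraries had correlations from −0.287 to 0.427, and 1 of 6 gene-trap sham libraries correlated best with its own number. With the replicate number as a block, 8 genes were called, 6 of them among the 105.

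Component 3 kept its direction and its side of the threshold with DESeq2 size factors, a prior count of 5, mitochondrially encoded genes left out and each library left out, from −32.0 to −25.6 in the last. Components of the 13 libraries alone gave 29.3 for component 1 and −29.3 for components 2 and 3, past the threshold; all 3 matched the same component, so this alternative bears on none of them singly. With a library left out the differences ran from 11.1 to 22.9 for component 1, from −9.34 to −1.88 for component 2 and from −2.11 to −1.17 points for the mitochondrial share, with 1, 5 and 2 of 13 past the threshold. No value past the threshold changed sign. Values not past it did: 7 of component 4, gene counts and the share without a unique alignment, with a library left out, and 44 of 8 genes chosen for a small direct difference. With a library left out, these 3 ran from −4.64 to 0.116, from −338963 to 125413 counts and from −0.413 to 0.113 points. Of the values for single genes under these alternatives, 975 of those with a library left out stayed on their side of the threshold, 209 lost a call and 64 gained one. Depth limits the lowest genes, such as Uty in gene-trap sham, where 4 of 6 libraries held 3 or fewer counts.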

Other observations

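Neutrophil markers were low in all libraries, but their summed level reached 36.0 CPM in 1 gene-trap sham library, against a median of 6.95 CPM in that group and a highest value of 11.4 CPM in wild-type castrated. Erythroid markers ran from 1157 to 5285 CPM in gene-trap sham and from 1806 to 3946 CPM in wild-type castrated. Adipocyte markers ran from 1097 to 1856 CPM and from 999 to 2046 CPM. Most of this sum was Fabp4, also on the endothelial list, with means of 1279 and 1314 CPM, so it does not measure fat cells. Skeletal muscle markers, of which the fast myosin genes Myh1, Myh2 and Myh4 were at or near 0, ran from 2121 to 3595 CPM and from 1829 to 2695 CPM. Nearly all of this sum was Ckm, also on the ventricular list, and Acta1, so it does not measure skeletal muscle. Their means were 2244 and 1822 CPM for Ckm and 580 and 439 CPM for Acta1. Mesothelial and Schwann cell markers ran from 16.1 to 27.4 CPM and from 16.9 to 23.5 CPM.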
